A study of Mus musculus with 27 samples.

Results

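The genes examined were the phase II conjugating enzymes of the colonic epithelium: the glutathione S-transferases (GST), the UDP-glucuronosyltransferases (UGT) and the sulfotransferases (SULT) of the mouse. They were chosen by symbol, with pseudogenes left out, and by a minimum of 10 counts in at least 3 of the 27 libraries. Of the 46078 genes in the tables, 67 carried a matching symbol and 39 of these met the count rule. The members were 18 soluble GST genes of 21 (the mitochondrial and peroxisomal Gstk1 among them), all 3 microsomal GST genes, 12 UGT genes of 22 and 6 SULT genes of 21. The other 28 genes fell under the count rule, 12 of them with 0 counts in all libraries, and they included Ugt3a1, Ugt3a2, Sult1e1, Gsta2 and the Sult2a genes. All 39 members passed the filter on low counts, and 35 had 10 or more counts in all 27 libraries.

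Phase II enzymes attach a polar group to a drug, toxicant, bile pigment or hormone so that it can be carried out of the cell. GST enzymes transfer glutathione to electrophiles, UGT enzymes transfer glucuronic acid from UDP-glucuronic acid, and SULT enzymes transfer sulfate from the donor PAPS. In the gut these enzymes act on dietary and microbial compounds at the epithelial border. The aryl hydrocarbon receptor (AhR) pairs with ARNT at dioxin response elements, and several UGT1A and GST genes are among its textbook targets. Some of the same genes are also known targets of the oxidant-sensing factor NRF2. The dioxin TCDD is a long-lived AhR ligand.

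RNA-seq counts from scraped colonic epithelium were analysed for 27 male C57BL/6 mice in 9 groups of 3. The mice received sesame oil vehicle or TCDD by gavage, at doses of 30, 10, 3, 1, 0.3, 0.1, 0.03 or 0.01 μg/kg every 4 days for 7 gavages, from 28 days of age, and tissue was taken on day 28, at 56 days of age. No group carried a genetic alteration, and each library was 1 mouse. Scrapings hold every epithelial cell type and some underlying tissue, and the position along the colon was not given in the sources used here. Gene counts per library ran from 9305441 to 14371035 (median 11651026). CPM denotes counts scaled to a common total over the tested genes, after TMM scaling, and a call denotes an edgeR adjusted p under 0.05 together with a fold change of at least 1.5 against vehicle. In these bulk samples, fewer cells of a type and less RNA per cell cannot be told apart.

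The 27 libraries reused index barcodes: 11 of 16 barcodes occurred a second time, and by mouse number the libraries formed a first set of 16 and a second set of 11. By this order the vehicle group and the doses up to 0.3 μg/kg lay wholly in the first set, the doses of 3, 10 and 30 μg/kg wholly in the second, and the 3 mice at 1 μg/kg in both. Mice 28, 33, 34, 35 and 41 had barcodes used once and were placed in the first set by rule. Mouse 41 was the only mouse at 1 μg/kg placed there. Thus dose and index set cannot be told apart above 1 μg/kg except through comparisons inside the second set and through the 3 mice at 1 μg/kg. The latter holds only if mouse 41 was rightly placed. Mouse 41 also differed from mice 43 and 44 in the Hox score of gut position described further on (2.789 against -0.8797 and -1.546). Its stroma and muscle marker sum was 371.3 CPM, against 68.29 and 64.55 CPM. The part of these differences in the values with the index set as a term was not tested. The genes of the AhR battery outside the conjugating enzymes matched the labels. Cyp1a1 had 0 to 1 counts in the vehicle-treated mice and 23969 to 29287 counts at 30 μg/kg, and 5 of the 5 tested genes of this list of 7 were called higher at that dose. Colonocyte markers (8 genes) summed to 8494 to 8978 CPM in vehicle-treated mice and 8339 to 9407 CPM at 30 μg/kg, and no colonocyte or goblet marker was at 0 in all libraries. Of 7 goblet markers 1 was called, Zg16, higher at 1321 against 669 CPM (log2 0.98, SE 0.183, edgeR adjusted p = 0.00149). Acinar markers of the pancreas (3 genes) summed to 1937 CPM in vehicle-treated mouse 3, against 83.0 and 47.1 CPM in mice 2 and 4. Stroma and muscle markers (8 genes) summed to 124 to 155 CPM in vehicle-treated mice and to 398.6, 131.5 and 694.4 CPM in mice 65, 66 and 67 at 30 μg/kg, with 0 of 8 called. Stem cell markers (5 genes) summed to 78.8 to 89.0 CPM with vehicle and 40.98 to 57.9 CPM at 30 μg/kg, with Lgr5 and Axin2 called lower. Adipocyte markers (5 genes) summed to 6.69 to 24.7 CPM and to 21.9, 45.8 and 150.2 CPM in mice 65, 66 and 67, with 2 called higher, and of 3 endothelial markers 2 were called higher (sums of 14.9 to 18.2 and 17.1 to 34.3 CPM). The part of these markers in the members' values was not tested.

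In vehicle-treated mice the most abundant members per kilobase belonged to each of the 3 enzyme classes. On the scale of CPM per kilobase of exon (exon not shared with another gene), Gsto1, which reduces dehydroascorbate and thiol adducts, had a level of 125 ± 9.12 (SD, n = 3). Mgst3, a microsomal glutathione transferase, followed at 120 ± 4.29, and Sult1a1, the main phenol sulfotransferase, at 115 ± 20.9. Ugt2b34 had a level of 113 ± 6.89 CPM per kilobase, Ugt1a1, the bilirubin-conjugating enzyme, 102 ± 39.5, Ugt1a7c 94.0 ± 19.5 and Sult1d1 93.6 ± 14.8. Per kilobase of all exons, which applies if reads of the shared exons were counted, Ugt1a1 and Ugt1a7c would be at 41.8 ± 16.2 and 42.7 ± 8.86, below Gstm1. On the scale of unshared exon, each of these 7 differed from its neighbour in the order by less than the larger of their SDs. Below them came Gstm1 at 56.9 ± 3.79 and the pi-class Gstp1 at 52.03 ± 9.37 CPM per kilobase, a step from Sult1d1 to Gstm1 that exceeded both SDs. The lowest were Ugt1a10 and Sult4a1, at 0.350 ± 0.329 and 0.160 ± 0.0783 CPM per kilobase, which reached 10 counts in 3 and 5 libraries.

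At 30 μg/kg TCDD, 4 members rose and 4 fell, and at lower doses 1 member was called. The members that rose were Gsta1 of the alpha class, Gstp1 of the pi class, and Ugt1a7c and Ugt1a6b of the UGT1A cluster. Those that fell were the sulfotransferases Sult1a1 and Sult1c2, the mu-class Gstm3 and the theta-class Gstt1. These 8 made up 20.5% of the 39 members, beside 6.16% of the 16496 genes tested. The count moved with the fit: leaving out 1 mouse gave 3 to 9 members (3 without vehicle-treated mouse 2 and 3 without mouse 66 at 30 μg/kg), the index set as a term gave 3 and the clock score 1. By direction, the 4 called higher stood beside 2.95% of all genes and the 4 called lower beside 3.21%. The median log2 fold change over the members was 0.12, with 26 above 0 and 13 below, and over all genes it was -0.0022. Individual mice at 30 μg/kg lay wholly above or wholly below the vehicle-treated mice for 14 members (35.9%, beside 29.7% of all genes), including the 8 called.

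**Figure D1:**
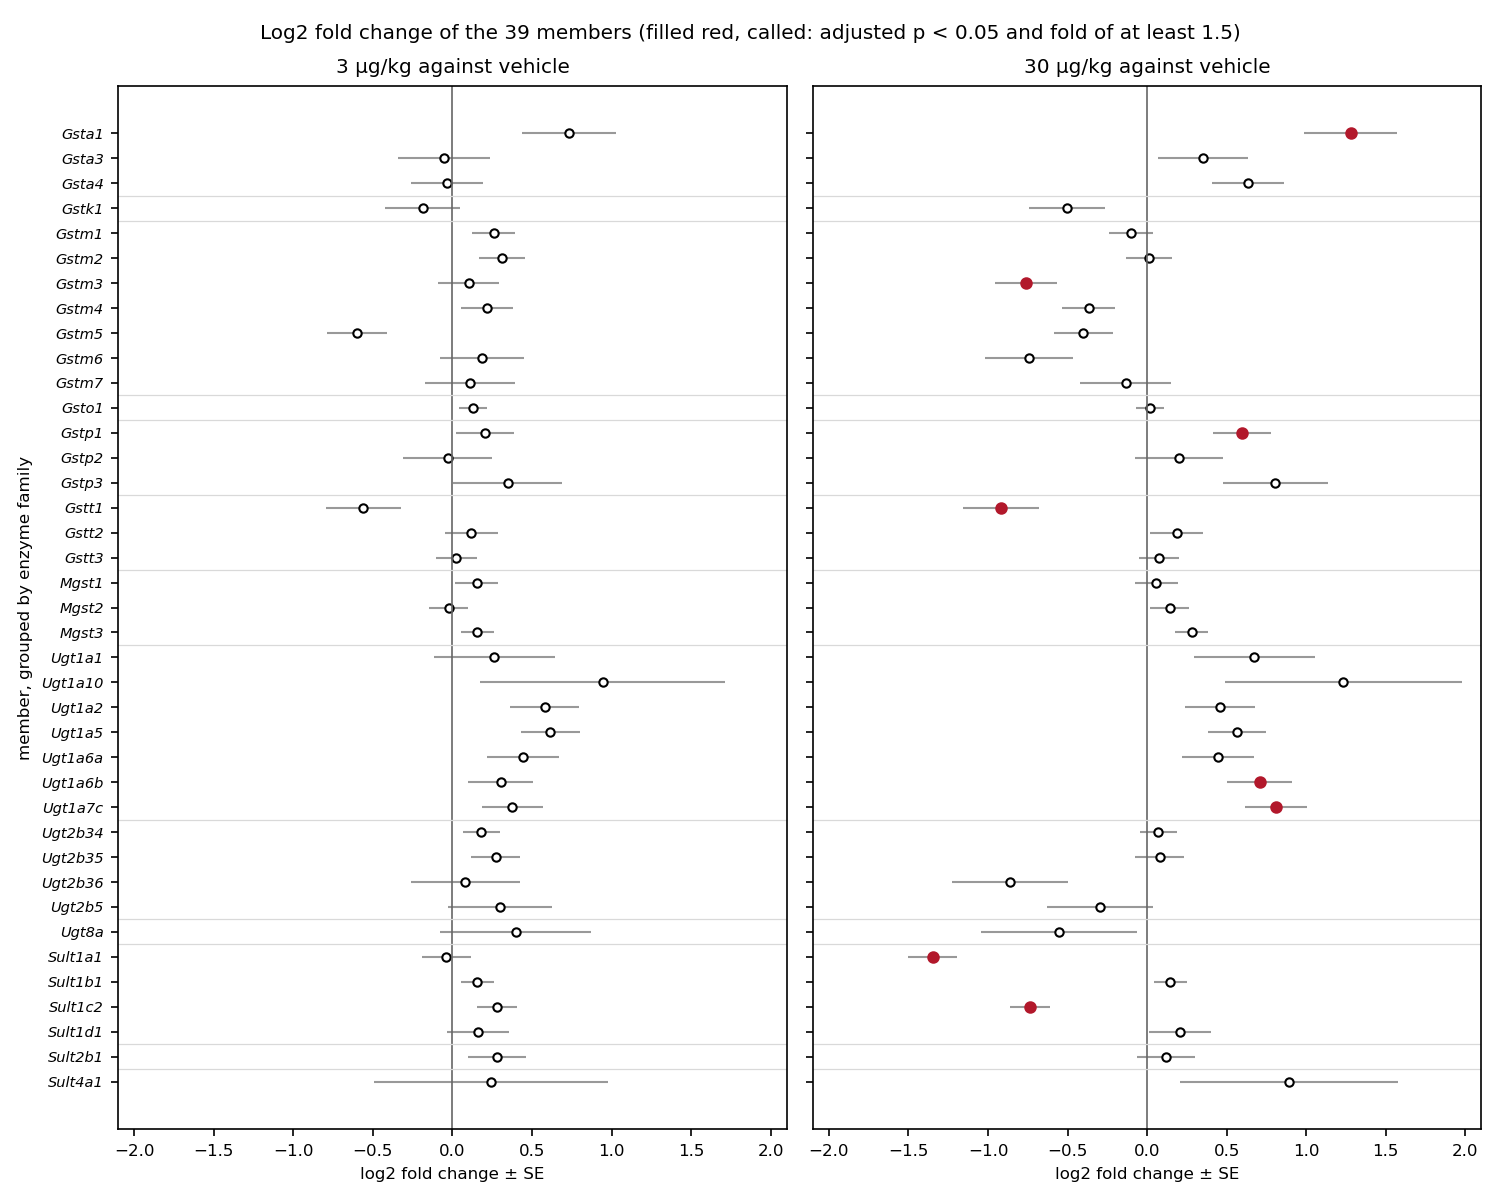
Log2 fold change against vehicle with its standard error (x axis) for each of the 39 members (y axis, grouped by family) at 3 μg/kg (left) and 30 μg/kg (right), from 3 mice per group. No member was called at 3 μg/kg, and at 30 μg/kg the 8 called members (filled red) ran from -1.35 for Sult1a1 to 1.28 for Gsta1.

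Below 30 μg/kg the members gave few calls. At 10 μg/kg Sult1a1 alone was called (2.56% of the members, beside 1.78% of all genes), with 8 members at an unadjusted p under 0.05 (beside 17.8%), and mice did not overlap the vehicle group for 13 members (33.3%, beside 25.2%). At 3 μg/kg edgeR called 0 members (beside 0.697% of all genes), DESeq2 called 1 and limma voom 0, with 7 at an unadjusted p under 0.05 (beside 16%) and 11 members without overlap (28.2%, beside 24.6%). At 1 μg/kg the count was 0 (beside 0.2%), with 3 at an unadjusted p under 0.05 (beside 9.8%). In the 4 groups below 1 μg/kg it was 0 (beside 0%). From 0.01 to 0.3 μg/kg, 4, 2, 1 and 1 members had an unadjusted p under 0.05 (beside 6.35%, 4.64%, 6.37% and 5.19%). DESeq2 also called 0 members at each of these 5 doses, as did limma voom by its posterior probability rule. A test over all 8 doses together was past an adjusted p of 0.05 for 7 members (17.9%, beside 7.35% of all genes), namely all those called at 30 μg/kg other than Ugt1a6b. The 10 μg/kg count rested on the setting: DESeq2 gave 4 members, a fit with the Hox score described further on gave 5, and the index set or the clock score as a term gave 0, as did the fit without vehicle-treated mouse 3.

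Gsta1, an alpha-class GST that detoxifies electrophiles and is inducible by xenobiotics, showed the largest rise among the members. It measured 7.28, 12.6 and 11.5 CPM in vehicle-treated mice 2, 3 and 4, and 18.98, 36.3 and 20.9 CPM in mice 65, 66 and 67 at 30 μg/kg. Every mouse at 30 μg/kg exceeded every vehicle-treated mouse, and mouse 66 stood above the other two. The means were 10.5 ± 2.82 and 25.4 ± 9.48 CPM (SD, n = 3), a 2.43-fold difference (log2 1.28, SE 0.293, edgeR adjusted p = 0.00748). At 3 μg/kg the 3 mice had 16.5, 15.2 and 20.4 CPM and at 10 μg/kg 14.1, 19.1 and 16.2 CPM, while the 15 mice from 0.01 to 1 μg/kg ranged from 5.46 to 17.3 CPM. The differences at 3 and 10 μg/kg, log2 0.73 and 0.65, did not pass (edgeR adjusted p = 0.215 and 0.244). Without mouse 66 the difference at 30 μg/kg was log2 0.932 (edgeR adjusted p = 0.0586), and without vehicle-treated mouse 2 it was 1.08 (0.0501). Small intestine markers (6 genes) summed to 232 CPM in mouse 66, against 68.7 and 84.5 CPM in mice 65 and 67 and 55.9 to 82.4 CPM in vehicle-treated mice, and their part in the Gsta1 value was not tested. Mouse 66 also had the lowest value at 30 μg/kg of Sult1a1, Sult1c2, Gstm3 and Gstt1, given below. The part of these markers in those values was not tested either. The gene lies at chr9:78230656-78242684 (GRCm38, plus strand), and 90.5% of the 50-base windows of its exons occur elsewhere among transcripts, mostly in Gm3776, so its reads cannot be fully separated from that copy.

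The UGT1A genes occupy 1 stretch of chromosome 1 (for Ugt1a7c chr1:88095062-88220002, plus strand), where each gene has its own first exon and all share the remaining exons. Between 52.1% and 79.8% of the 50-base exon windows of the 7 members were shared, and which reads of the common exons were counted is not given in the sources used here, so their values are not independent of each other. An exon of Gm20528 overlaps all 7 on the other strand. Ugt1a7c, the most abundant by CPM, had 137, 197 and 206 CPM in vehicle-treated mice and 295, 329 and 323 CPM at 30 μg/kg. The groups did not overlap, and the means of 180.0 ± 37.4 and 316 ± 18.02 CPM differed 1.75-fold (log2 0.81, SE 0.192, edgeR adjusted p = 0.00935). Intermediate values of 247, 218 and 236 CPM were found at 3 μg/kg and of 249, 331 and 232 CPM at 10 μg/kg, where log2 0.59 gave an edgeR adjusted p of 0.0952. Without vehicle-treated mouse 2 the difference at 30 μg/kg was log2 0.653 (edgeR adjusted p = 0.0583).

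Ugt1a6b, of the pair that conjugates simple phenols, had 6.30, 6.85 and 6.77 CPM in vehicle-treated mice and 9.64, 11.4 and 11.6 CPM at 30 μg/kg. It rose 1.63-fold (log2 0.71, SE 0.202, edgeR adjusted p = 0.0265), and all 3 mice lay above the vehicle range. The call held without mouse 65 and was lost without any other single mouse of the 2 groups, with log2 0.664 to 0.730 and edgeR adjusted p between 0.0613 and 0.0881. Ugt1a5 changed by log2 0.56 (SE 0.183, edgeR adjusted p = 0.0489), from 11.5 to 17.0 CPM, which is under the 1.5-fold minimum. Its log2 differences at 3 and 10 μg/kg were 0.62 and 0.60 (edgeR adjusted p = 0.0937 and 0.0754). For the other tested UGT1A genes the log2 differences at 30 μg/kg were 0.45 for Ugt1a6a, 0.46 for Ugt1a2, 0.67 for Ugt1a1 and 1.23 for Ugt1a10, and none passed (edgeR adjusted p = 0.210, 0.177, 0.264 and 0.302). All 7 differences were above 0, with a median of 0.67, whereas with the index set as a term 5 of 7 were, with a median of 0.30. That term rests on mouse 41 at 1 μg/kg, whose higher Hox score and stroma sum are given above. Summed over the 7 genes, the UGT1A level was 326 ± 84.4 CPM in vehicle-treated mice and 540.0 ± 81.7 CPM at 30 μg/kg (SD, n = 3), with ranges of 229 to 379 and 450 to 609 CPM. Without Ugt1a1 the sum was 233 ± 48.6 and 392 ± 22.8 CPM.

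Gstp1, a pi-class GST, had 65.4, 94.3 and 81.9 CPM in vehicle-treated mice and 130, 110 and 125 CPM at 30 μg/kg. The groups did not overlap, and the 1.51-fold rise (log2 0.60, SE 0.185, edgeR adjusted p = 0.0392) lay just above the fold minimum. Its mean of 61.5 CPM at 1 μg/kg was the lowest of the 9 groups. Leaving out any of vehicle-treated mice 2 and 4 or of mice 65, 66 and 67 ended the call, with edgeR adjusted p between 0.054 and 0.166. The neighbouring copy Gstp2 shares 54.3% of its own exon windows, and Gstp1 33.7% of its own, mostly with each other. Gstp2 had 25.5 ± 6.08 and 29.2 ± 8.11 CPM (log2 0.20, edgeR adjusted p = 0.693), and the low Gstp3 1.16 ± 0.473 and 2.06 ± 0.742 CPM (log2 0.81, edgeR adjusted p = 0.116).

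Sult1a1, the phenol sulfotransferase, had the largest fall among the members and was called at both 10 and 30 μg/kg, with the call at 10 μg/kg lost in 3 other fits given below. It measured 141, 204 and 176 CPM in vehicle-treated mice 2, 3 and 4. At 30 μg/kg mice 65, 66 and 67 had 81.0, 47.6 and 76.0 CPM, and at 10 μg/kg mice 57, 58 and 59 had 99.6, 110 and 103 CPM. All 6 of these mice lay below every other mouse: the 18 mice at 0.01 to 3 μg/kg ranged from 139 to 204 CPM, and at 3 μg/kg the values were 175, 168 and 166 CPM. The group mean was 174 ± 31.5 CPM with vehicle (SD, n = 3). The 3 μg/kg group averaged 169 ± 4.72 CPM, the 10 μg/kg group 104 ± 5.46 CPM and the 30 μg/kg group 68.2 ± 18.05 CPM. The fall was 1.67-fold at 10 μg/kg (log2 -0.74, SE 0.153, edgeR adjusted p = 0.00861) and 2.55-fold at 30 μg/kg (log2 -1.35, SE 0.155, edgeR adjusted p = 1.07e-05), while the differences at the 6 lower doses ran from log2 -0.038 to 0.11. At 10 μg/kg the call was lost with the index set as a term (log2 -0.757, edgeR adjusted p = 0.185), with the clock score (-0.797, 0.204) and without vehicle-treated mouse 3 (-0.609, 0.0579). Sult1a1 lies at chr7:126672865-126676432 (GRCm38, minus strand). An exon of Sgf29 overlaps it on the other strand, and the use of strand in counting is not given in the sources used here, so reads of the overlap cannot be told apart.

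Sult1c2, a further cytosolic sulfotransferase (chr17:53829637-53846339, minus strand), fell at 30 μg/kg. It had 22.7, 24.3 and 27.2 CPM in vehicle-treated mice and 16.3, 13.9 and 14.4 CPM at 30 μg/kg, a 1.67-fold fall without overlap (log2 -0.74, SE 0.128, edgeR adjusted p = 0.000802). At 0.01, 0.03 and 0.1 μg/kg the log2 differences were 0.29, 0.29 and 0.37 (edgeR adjusted p = 0.781, 0.988 and 0.706), and at 3 μg/kg, with 30.1, 29.0 and 31.1 CPM, the difference was 0.28 (0.266). The 10 μg/kg mice had 16.1, 23.2 and 21.3 CPM. The remaining SULT1 genes did not pass at 30 μg/kg. Sult1b1, which acts on phenols and thyroid hormones, had log2 0.15 and Sult1d1 0.20 (edgeR adjusted p = 0.391 and 0.539). The SULT1 sum was 531 ± 63.3 CPM with vehicle and 462 ± 7.34 CPM at 30 μg/kg, and without Sult1a1 it was 357 ± 33.7 and 393 ± 24.9 CPM.

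Gstm3, a mu-class GST, had 29.2, 32.8 and 38.6 CPM in vehicle-treated mice and 24.3, 14.2 and 20.8 CPM at 30 μg/kg. The groups did not overlap, and the fall was 1.69-fold (log2 -0.76, SE 0.195, edgeR adjusted p = 0.0152), with the lowest value in mouse 66. Without mouse 66 the log2 difference was -0.57 (edgeR adjusted p = 0.0884), and without vehicle-treated mouse 4 it was -0.645 (0.0744). Across the 7 mu-class genes 6 of 7 differences at 30 μg/kg were below 0, with a median of -0.37 and Gstm3 the only one called. With the index set as a term the direction of the class turned: 3 of the 7 were below 0 and the median was 0.14. That term rests on mouse 41, as said above for the UGT1A genes. Gstm3 shares 28.8% of its exon windows with other transcripts, mostly Gm8834. The mu-class sum was 177 ± 8.40 CPM with vehicle, 202 ± 18.9 CPM at 3 μg/kg and 150.02 ± 29.9 CPM at 30 μg/kg.

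Gstt1, a theta-class GST known for acting on small halogenated compounds, fell at 30 μg/kg and had the steepest downward slope over the doses. It had 12.4, 9.49 and 10.01 CPM in vehicle-treated mice. Values were 8.64, 7.55 and 5.51 CPM in the 3 μg/kg group, 7.59, 5.05 and 6.04 CPM in the 10 μg/kg group, and 6.69, 3.85 and 6.29 CPM in the 30 μg/kg group. The fall at 30 μg/kg was 1.89-fold (log2 -0.92, SE 0.239, edgeR adjusted p = 0.0163), and all 9 mice from 3 to 30 μg/kg lay below the vehicle-treated mice. Mouse 14 at 0.01 μg/kg, with 6.46 CPM, lay among the high-dose values. Without vehicle-treated mouse 2 the difference was log2 -0.786 (edgeR adjusted p = 0.0841), and without mouse 66 it was -0.71 (0.0889). With the clock score described further on as a term, whose estimate leans on mouse 14, it was 0.042 (edgeR adjusted p = 0.970), and -1.61 (0.491) with mouse 14 left out of that fit. With the index set it was -1.07 (0.165). The other theta-class genes did not pass: Gstt3, the most abundant, had log2 0.075 and Gstt2 0.19 (edgeR adjusted p = 0.754 and 0.504).

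**Figure D2:**
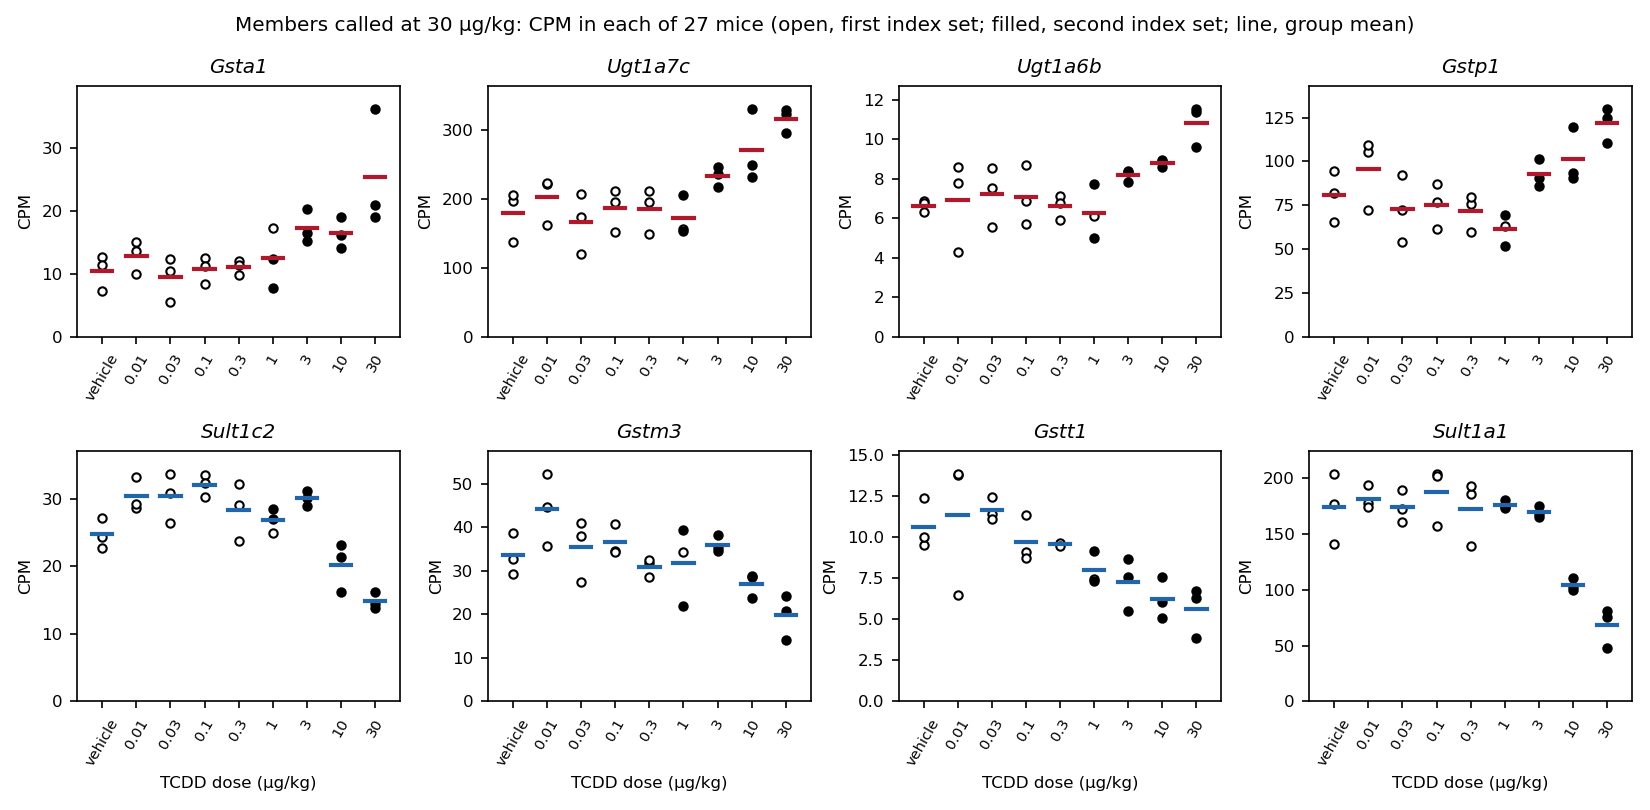
CPM (y axis, from 0) of the 8 members called at 30 μg/kg in each of the 27 mice, by TCDD dose in μg/kg (x axis). Open points are the first index set, filled points the second and lines the group means. Sult1a1 stayed between 139 and 204 CPM up to 3 μg/kg and lay between 47.6 and 110 CPM at 10 and 30 μg/kg, whereas Ugt1a7c had means of 180.0 CPM with vehicle and 316 CPM at 30 μg/kg.

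Promoters are shown for 3 members whose sequence holds the AhR core motif, Gsta1, Gstp1 and Ugt1a5, and for Ugt1a7c, Sult1a1 and Sult1c2, which were called at 30 μg/kg and whose sequence does not. Each is the RefSeq sequence (GRCm38.p6) from 250 bases before to 50 bases after the start, on the gene's strand, 5′ to 3′. Capitals mark GCGTG, the core of the dioxin response element, searched on both strands:
Gsta1 (chr9:78230419-78230718, plus strand): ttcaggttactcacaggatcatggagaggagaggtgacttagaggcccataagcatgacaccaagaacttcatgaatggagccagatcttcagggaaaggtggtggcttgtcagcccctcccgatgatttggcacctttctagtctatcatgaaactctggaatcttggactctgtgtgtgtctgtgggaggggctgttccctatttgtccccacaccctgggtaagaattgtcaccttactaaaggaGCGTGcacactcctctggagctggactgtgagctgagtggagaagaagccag
Gstp1 (chr19:4037863-4038162, minus strand): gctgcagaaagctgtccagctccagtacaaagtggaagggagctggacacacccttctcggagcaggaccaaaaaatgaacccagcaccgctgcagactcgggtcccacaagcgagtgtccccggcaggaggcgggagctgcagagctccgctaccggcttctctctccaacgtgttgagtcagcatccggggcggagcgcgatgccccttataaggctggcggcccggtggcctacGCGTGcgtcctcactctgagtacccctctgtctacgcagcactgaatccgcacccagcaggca
Ugt1a5 (chr1:88165762-88166061, plus strand): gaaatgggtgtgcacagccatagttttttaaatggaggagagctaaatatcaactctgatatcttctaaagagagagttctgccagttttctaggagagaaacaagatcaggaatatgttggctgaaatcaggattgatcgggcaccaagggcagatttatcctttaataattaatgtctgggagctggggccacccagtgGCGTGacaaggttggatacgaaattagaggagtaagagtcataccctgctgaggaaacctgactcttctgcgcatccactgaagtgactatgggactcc
Ugt1a7c (chr1:88094751-88095050, plus strand): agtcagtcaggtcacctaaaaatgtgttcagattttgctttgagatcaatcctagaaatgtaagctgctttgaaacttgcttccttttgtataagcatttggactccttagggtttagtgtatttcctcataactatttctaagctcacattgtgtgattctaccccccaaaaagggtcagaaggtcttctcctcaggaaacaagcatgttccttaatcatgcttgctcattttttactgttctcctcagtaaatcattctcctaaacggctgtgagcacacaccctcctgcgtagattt
Sult1a1 (chr7:126676369-126676668, minus strand): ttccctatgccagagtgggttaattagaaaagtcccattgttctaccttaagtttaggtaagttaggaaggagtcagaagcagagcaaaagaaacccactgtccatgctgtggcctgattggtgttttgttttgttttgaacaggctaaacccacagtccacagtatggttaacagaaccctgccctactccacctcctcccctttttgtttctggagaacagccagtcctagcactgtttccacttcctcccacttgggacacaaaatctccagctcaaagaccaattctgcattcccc
Sult1c2 (chr17:53845909-53846208, minus strand): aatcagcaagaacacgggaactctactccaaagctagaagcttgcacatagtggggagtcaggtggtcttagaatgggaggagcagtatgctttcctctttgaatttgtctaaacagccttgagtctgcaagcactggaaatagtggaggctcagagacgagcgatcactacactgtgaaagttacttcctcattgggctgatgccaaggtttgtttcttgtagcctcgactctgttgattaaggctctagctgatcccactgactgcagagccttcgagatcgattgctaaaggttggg

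The match began 2 bases before the start in Gsta1, 13 bases before it in Gstp1 and 49 bases before it in Ugt1a5. A promoter was matched for 35 of the 39 members, leaving out Gsta4, Gstt2, Sult4a1 and Ugt1a6b. Some genes have more than 1 promoter in the table, and the 35 members had 44. GCGTG occurred in 13 of these 44 promoters (29.5%), from 11 members, beside 32.4% of all 32851 promoters of the same length. Of the 7 members called at 30 μg/kg that had a promoter, Gsta1 and Gstp1 held it, and Ugt1a7c, Sult1a1, Sult1c2, Gstm3 and Gstt1 did not. The longer form TNGCGTG, which contains the core, was found in Ugt1a5 and Sult1d1 (2 of the 44 promoters, 4.55%, beside 5.07% of all promoters). The antioxidant response core TGACNNNGC, at which NRF2 binds and which was also searched on both strands, was found in Gsta3, Gstm5, Gstm7 and Mgst1 (4 of the 44 promoters, 9.09%, beside 12.4%), none of them called. These are matches of letters in a 300-base window and show nothing about binding.

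The remaining members were spread around no change at 30 μg/kg, and none passed. The most abundant member by CPM, Ugt2b34, had 488 ± 29.7 CPM with vehicle and 512 ± 16.8 CPM at 30 μg/kg (log2 0.071, edgeR adjusted p = 0.743). Gsto1 had 253 ± 18.4 and 256 ± 15.7 CPM (log2 0.018, edgeR adjusted p = 0.928). Mgst3 had 131 ± 4.70 and 159 ± 27.3 CPM (log2 0.28, edgeR adjusted p = 0.0842), and Gstm1 83.9 ± 5.58 and 78.2 ± 19.5 CPM (log2 -0.10, edgeR adjusted p = 0.682). Gsta4, which conjugates lipid peroxidation products such as hydroxynonenal, had 26.9 ± 4.42 and 41.9 ± 12.4 CPM (log2 0.63, edgeR adjusted p = 0.0704). Gstk1, a GST of mitochondria and peroxisomes, had 42.8 ± 9.42 and 30.2 ± 1.05 CPM (log2 -0.50, edgeR adjusted p = 0.172). Among the less abundant, Ugt8a, the ceramide galactosyltransferase, had log2 -0.55 and Sult2b1, a cholesterol sulfotransferase, 0.12 (edgeR adjusted p = 0.505 and 0.729), and Sult4a1 had 0.402 ± 0.197 and 0.765 ± 0.385 CPM (log2 0.89, edgeR adjusted p = 0.432). Over the UGT2 genes the sum was 525 ± 36.0 CPM with vehicle and 547 ± 17.1 CPM at 30 μg/kg, and over the microsomal GST genes 320.4 ± 8.33 and 365 ± 49.9 CPM.

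**Figure D3:**
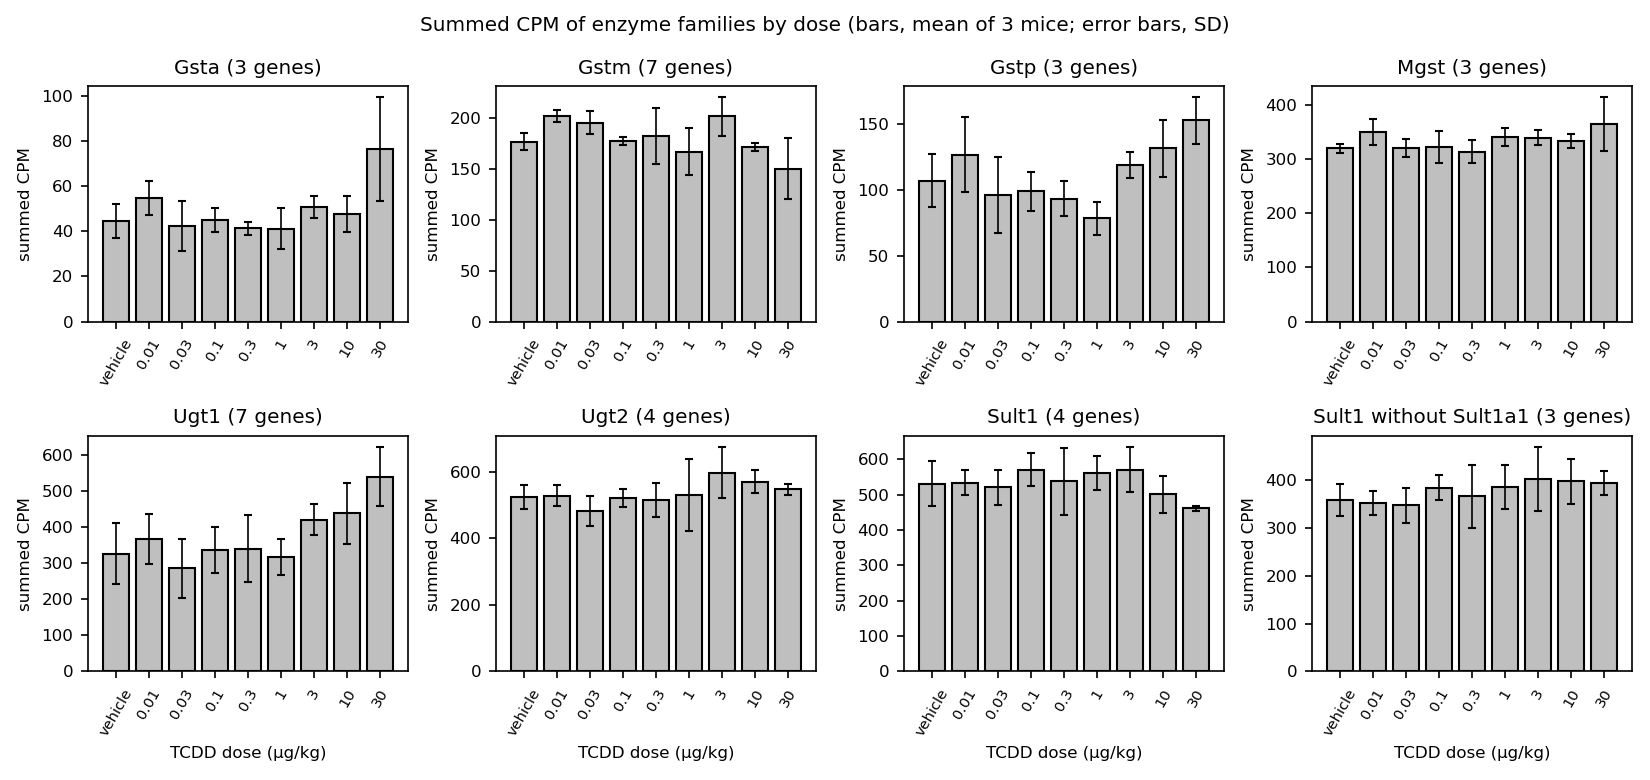
Summed CPM (y axis, from 0) of enzyme families in the 9 groups (x axis, TCDD in μg/kg), with bars for the mean of 3 mice and error bars for the SD. The UGT1A sum (panel Ugt1) ran from 326 CPM with vehicle to 540.0 CPM at 30 μg/kg, and the SULT1 sum from 531 to 462 CPM.

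A slope over the rank of the dose passed an edgeR adjusted p of 0.05 for 14 members (35.9%, beside 23.4% of all genes), 9 upward (beside 11.8%) and 5 downward (beside 11.6%). The steepest upward was Gsta1 (log2 0.14 per dose step, SE 0.028), followed by Ugt1a7c (0.09, SE 0.0195) and Ugt1a6b (0.071, SE 0.0192). Also upward were Ugt1a5, Ugt1a2, Ugt1a6a, Sult2b1, Sult1b1 and Mgst3. The steepest downward was Gstt1 (-0.13 per dose step, SE 0.021), followed by Sult1a1, Gstm3, Sult1c2 and Gstk1. With the index set as a term the slope passed for 0 of the 14, and the SEs were wider. The slope was then 0.13 for Gsta1 (SE 0.0554), -0.12 for Sult1a1 (SE 0.0487), -0.104 for Gstt1 (SE 0.039), -0.098 for Gstm3 (SE 0.041), -0.071 for Sult1c2 (SE 0.0408) and -0.074 for Gstk1 (SE 0.041). It was 0.048 for Ugt1a7c (SE 0.0386), 0.051 for Ugt1a6b (SE 0.0383), 0.011 for Mgst3 (SE 0.0185) and -0.0076 for Ugt1a2 (SE 0.0338).

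Inside the second index set, the comparison of 30 with 3 μg/kg called 3 members, all lower (7.69%, beside 0.461% of all genes in either direction and 0.242% lower), with 11 at an unadjusted p under 0.05 (beside 11%). Sult1a1 fell 2.48-fold (log2 -1.31, SE 0.155, edgeR adjusted p = 4.42e-05), Sult1c2 fell 2.02-fold (log2 -1.02, SE 0.127, edgeR adjusted p = 8.29e-05) and Gstm3 fell 1.82-fold (log2 -0.86, SE 0.194, edgeR adjusted p = 0.0374). For the members that rose against vehicle, the values were log2 0.54 for Gsta1, 0.43 for Ugt1a7c, 0.40 for Ugt1a6b and 0.39 for Gstp1, and none passed (edgeR adjusted p = 0.490, 0.395, 0.458 and 0.433). Gstt1 differed by log2 -0.36 (edgeR adjusted p = 0.638). Between 10 and 3 μg/kg edgeR called 0 members (beside 0.0485% of all genes), with 5 at an unadjusted p under 0.05 (beside 4.8%), among them Sult1a1 with log2 -0.70 and Sult1c2 with log2 -0.57 (edgeR adjusted p = 0.178 for both). Between 30 and 10 μg/kg it also called 0 (beside 0%), with 7 at an unadjusted p under 0.05 (beside 6%).

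The index set as a term is estimated through mouse 41 against mice 43 and 44 at 1 μg/kg. With this term, 3 of the 8 members kept their call at 30 μg/kg (7.69% of the members, beside 4.43% of all genes in that fit). Gsta1 then had log2 2.06 (SE 0.487, edgeR adjusted p = 0.0224), Sult1a1 -1.37 (SE 0.287, edgeR adjusted p = 0.014) and Sult1c2 -0.89 (SE 0.23, edgeR adjusted p = 0.0304). The members that lost their call had log2 0.61 for Ugt1a7c, 0.64 for Ugt1a6b, 0.65 for Gstp1, -0.60 for Gstm3 and -1.07 for Gstt1 (edgeR adjusted p = 0.328, 0.356, 0.283, 0.352 and 0.165). The SE of the Ugt1a7c value was 0.345 with this term and 0.192 without it, and of the Sult1a1 value 0.287 and 0.155.

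Clock genes also differed between the groups. A clock score (9 genes, among them Dbp, Per1, Per2 and Nr1d1, minus 5 genes of the opposite phase, among them Arntl and Npas2) lay between -2.72 and -2.47 in vehicle-treated mice and between 1.53 and 2.19 at 30 μg/kg. It was 0.902 to 2.00 in the mice at 1 μg/kg, which include both index sets, and 1.45 in mouse 14 at 0.01 μg/kg, whose group mates were at -2.82 and -2.099 and whose Gstt1 value of 6.46 CPM was the lowest below 3 μg/kg. At 30 μg/kg the 9 genes were all called higher, and 4 of the 5 of the opposite phase were called lower. With the clock score as a term Sult1a1 alone among the members was called (2.56%, beside 2.56% of all genes in that fit), at log2 -1.41 (SE 0.294, edgeR adjusted p = 0.0164). Sult1c2 had log2 -0.72 and Ugt1a7c 1.14 in that fit (edgeR adjusted p = 0.0991 and 0.0894), Gsta1 0.98 and Gstp1 0.95 (0.348 and 0.143), Gstm3 -0.64 and Ugt1a6b 0.16 (0.360 and 0.859), and Gstt1 0.042 (0.970). The term could be estimated only from differences in score between mice of 1 group, and the 0.01 μg/kg group, which holds mouse 14, gave 85.5% of the within-group sum of squares. With mouse 14 left out of the fit with the clock score, an alternative chosen after seeing the data, 0 members were called, Sult1a1 was at log2 -2.25 (SE 0.616, edgeR adjusted p = 0.216), and Gstp1 and Ugt1a6b turned to -0.59 and -0.97 (0.814 and 0.707). Dose and clock score were thus poorly separated in these mice, and the values with the clock score depended on mouse 14. The part of clock time in the members' values was not tested beyond these fits.

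**Figure D4:**
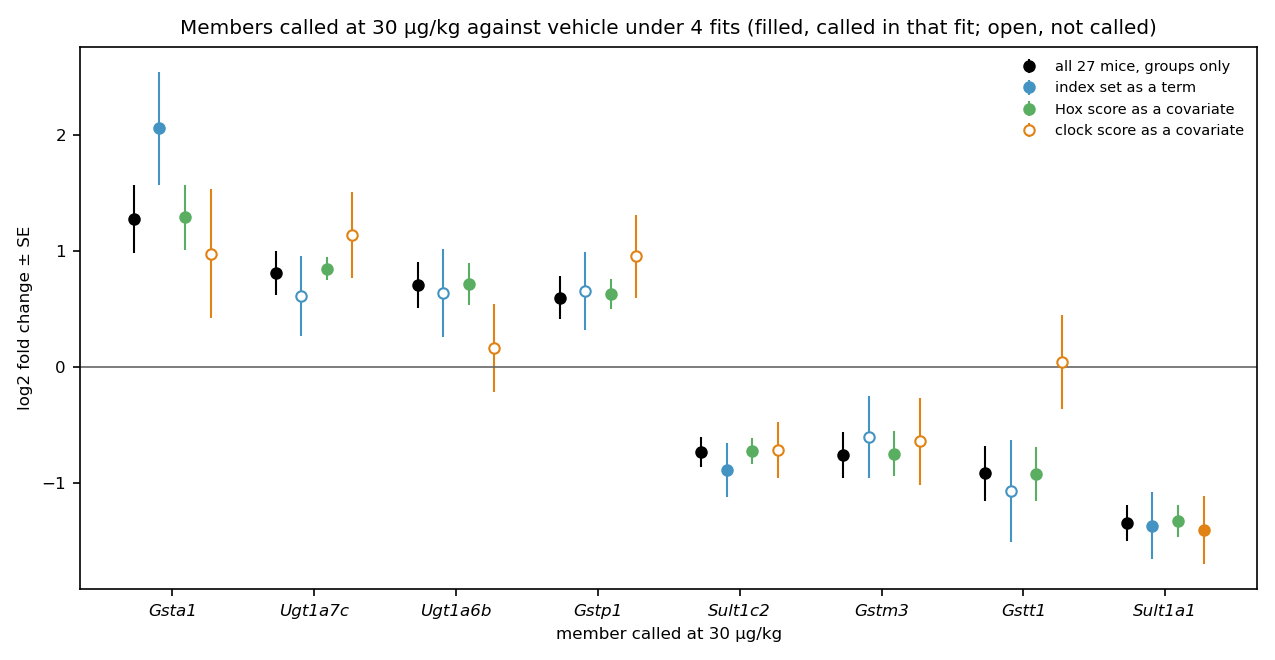
Log2 fold change at 30 μg/kg against vehicle with its standard error (y axis) for the 8 called members (x axis), in the fit by group and in the fits that add the index set, the Hox score or the clock score as a term. Filled points were called in that fit and open points were not. Sult1a1 ran from -1.41 to -1.33 in all 4 fits, whereas Gstt1 ran from -1.07 to 0.042.

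Among mice given the same dose, many members followed a score of position along the gut. Hox genes keep positional identity, and Hoxd13 and Hoxb13 mark its distal end. The score was the first principal component of 25 Hox genes within dose groups (69.4% of their variance), with loadings of 0.668 for Hoxd13 and 0.386 for Hoxb13, so that a higher score means more of these distal genes. It passed an edgeR adjusted p of 0.05 for 17 members (43.6%, beside 10.4% of all genes). Of these, 14 were lower with a higher score (35.9%, beside 5.08%) and 3 were higher (7.69%, beside 5.35%).

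The UGT1A genes were prominent among them, with 5 of 7 past the threshold. Ugt1a1 fell by 0.16 on the log2 scale per unit of score (SE 0.0212, edgeR adjusted p = 8.97e-06) and Ugt1a7c by 0.078 (SE 0.01, edgeR adjusted p = 5.92e-06). Vehicle-treated mouse 2, with a score of 3.59, had 51.3 CPM of Ugt1a1, and mice 3 and 4, with scores of -0.17 and -1.47, had 115 and 112 CPM. At 30 μg/kg mouse 65, with a score of 3.15, had 84.4 CPM of Ugt1a1, and mice 66 and 67, with scores of -0.021 and -0.49, had 204 and 157 CPM. In both groups the mouse with the highest score had the least Ugt1a1.

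The other members lower with a higher score were Ugt1a2, Ugt1a5, Ugt1a6a, Ugt2b5, Ugt2b36, Ugt8a, Sult1d1, Sult4a1, Gstk1, Gsta4, Gstp1 and Gsto1, and those higher were Gstm2, Gstm7 and Sult2b1. Sult1a1 and Sult1c2 changed by -0.036 and -0.030 per unit and did not pass (edgeR adjusted p = 0.0958 and 0.0845), nor did Gsta1 (-0.035, 0.551). The group means of the score were 0.649 with vehicle and 0.881 at 30 μg/kg. With the score as a term 11 members were called at 30 μg/kg (28.2%, beside 7.72% of all genes in that fit), the 8 already named and Gsta4 (log2 0.65), Ugt1a1 (0.73) and Ugt1a5 (0.59), with edgeR adjusted p of 0.0051, 0.0194 and 0.00213.

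**Figure D5:**
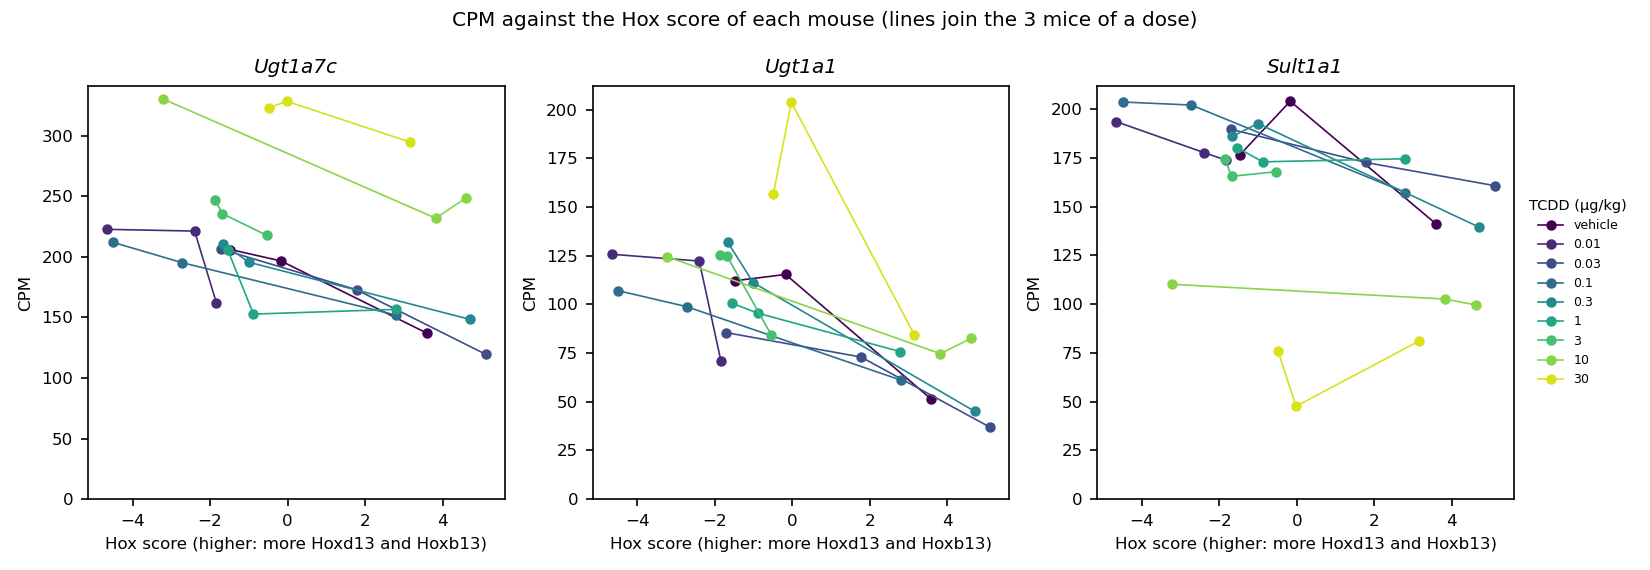
CPM (y axis) against the Hox score (x axis, higher with more Hoxd13 and Hoxb13) for Ugt1a7c, Ugt1a1 and Sult1a1 in the 27 mice, with colours for the dose in μg/kg and lines joining the 3 mice of a dose. Ugt1a1 ran from 36.8 CPM in the mouse with the highest score, 5.11, to 126 CPM in the mouse with the lowest, -4.66, and its highest value, 204 CPM, was in mouse 66 at 30 μg/kg, with a score of -0.021.

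The genes that supply the donors, cleave the conjugates and export them gave 4 calls among 38 tested genes at 30 μg/kg (10.5%, beside 6.16% of all genes), in lists of pathway genes chosen by role. Of 8 tested genes of sulfate donor supply 1 was called: Papss2, which makes PAPS, rose from 592 to 935 CPM (log2 0.66, SE 0.142, edgeR adjusted p = 0.00508), and the list median was -0.0014. None of the 5 genes of UDP-glucuronic acid supply was called (median log2 0.096), and none of the 4 tested genes of conjugate cleavage (median 0.015). Of 15 tested genes of glutathione synthesis and turnover, 2 were called higher (median 0.12). These were Oplah, 5-oxoprolinase, at 27.6 and 44.5 CPM (log2 0.69, SE 0.114, edgeR adjusted p = 0.000542), and Anpep, an aminopeptidase, at 15.2 and 53.3 CPM (log2 1.81, SE 0.57, edgeR adjusted p = 0.0427). Anpep was highest in mouse 66, at 82.7 CPM against 35.3 and 41.9 CPM in mice 65 and 67, and mouse 66 also had the highest sum of the small intestine markers given above. Of those 6 markers 2 were called higher at 30 μg/kg, Lct (0.845 to 7.71 CPM, edgeR adjusted p = 0.0307) and Alpi (34.1 to 73.1 CPM, 0.0238), and their part in the Anpep value was not tested. Of 6 export genes, Abcc2, an apical pump for glutathione and glucuronide conjugates, rose from 2.63 to 8.74 CPM (log2 1.73, SE 0.449, edgeR adjusted p = 0.0159), and the list median was 0.31.

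Among 13 tested further conjugating and related enzymes, 2 were called higher and 2 lower (30.8%, beside 6.16% of all genes, with a median log2 of 0.030). Ephx2, soluble epoxide hydrolase, rose from 20.8 to 44.7 CPM (SE of the log2 change 0.169, edgeR adjusted p = 0.000232), and Ptges, a prostaglandin E synthase, from 1.86 to 7.21 CPM (log2 1.95, SE 0.381, edgeR adjusted p = 0.00228). Ltc4s, leukotriene C4 synthase, had 18 to 20 counts with vehicle and 1 to 11 counts at 30 μg/kg (log2 -1.72, SE 0.443, edgeR adjusted p = 0.0155). Hpgds, a prostaglandin D synthase that belongs to the sigma class of GST, had 45 to 80 and 25 to 46 counts (log2 -1.28, SE 0.338, edgeR adjusted p = 0.0175). Both are known to be expressed in tuft cells of the gut. The 7 tuft cell markers summed to 85.4 to 100.1 CPM with vehicle and 25.8 to 38.1 CPM at 30 μg/kg, 6 of 6 tested were called lower, and their part in the Ltc4s and Hpgds values was not tested. Of the 11 NRF2 targets 1 was called, Nqo1 (log2 0.97, SE 0.228, edgeR adjusted p = 0.00929), which is also a gene of the AhR battery, and the list median was 0.046. Of 11 regulators 1 was called: Nfe2l2, which encodes NRF2, rose from 194 to 302 CPM (log2 0.64, SE 0.113, edgeR adjusted p = 0.000941), and Ahr itself had log2 0.16 (edgeR adjusted p = 0.455).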

How the data were processed

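Counts per gene from 27 mice were deposited by the authors as raw, unnormalized tables, 1 per mouse. Per the submitters' processing notes, reads passed FastQC 0.11.3, Trimmomatic 0.33, TopHat2 2.1.0, SAMtools 1.2.0 and HTSeq 0.6.1 against GRCm38, and DESeq was used. The annotation release, counting mode and use of strand are not given in the sources used here. Reads without a feature (29.1% to 33.3% of all entries of a table), ambiguous (0.392% to 0.607%) or not unique (30.7% to 37.1%) stayed out of library sizes.

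From the deposited counts, edgeR 4.0.16 (R 4.3.3) gave all main results: filterByExpr at 10 counts, TMM, and a quasi-likelihood fit of 9 groups over all 27 mice, with Benjamini-Hochberg adjustment over 16496 genes. Each replicate was a separate mouse. Index sets were read from the barcodes in the deposited names, by first or second use in order of mouse number, and the 5 barcodes used once count in the first set. Mouse 41 carries one of these, so the values with the index set as a term depend on this choice. Coordinates came from GENCODE (GRCm38), promoters from RefSeq (GRCm38.p6). DESeq2 1.42.0, limma 3.58.1 voom (posterior probability of 0.8 or more), other filters and covariates, and leaving out each mouse were alternatives, and the edgeR test at 30 μg/kg was tested on simulated data of 16253 genes, where it called 96% of 100 genes changed 4-fold and 71% of 100 changed 2-fold, with 3 false calls. The simulated mice held no effect of index set, clock or position, and the changed genes were drawn from those above a minimum mean count. These rates therefore do not cover such effects in the real mice. The members and lists were chosen with earlier results of these data known. Named were members called at any dose, the most abundant of each family, the UGT1A genes and Gsta1, and up to 5 called genes per list. Other members were named after their values were seen, to complete their families.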

Additional observations from a re-analysis of the deposited data

How the results depend on the processing

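At 30 μg/kg 8 members were called in the fit as reported, and 2 with the posterior probability rule of limma voom (Sult1a1 and Sult1c2), 9 with limma voom under the same adjusted p and fold rule (chosen after seeing the data), 3 with the index set as a term and 1 with the clock score, or 0 with the clock score when mouse 14 was left out (also chosen after seeing the data). At 10 μg/kg, where 1 was called, DESeq2 gave 4, the Hox score 5, no filter on low counts 2, and the posterior probability rule, the index set and the clock score 0. At 3 μg/kg DESeq2 gave 1 in place of 0. For 30 against 3 μg/kg the Hox score gave 5 in place of 3, and with the index set the test of any dose gave 2 in place of 7 and the slope 0 in place of 14. Leaving out 1 mouse gave 0 to 1 members at 3 μg/kg, 0 to 1 at 10 μg/kg, 3 to 9 at 30 μg/kg, 2 to 3 for 30 against 3 μg/kg, 5 to 8 for any dose, 11 to 15 for the slope and 13 to 19 for the Hox score. The count at 30 μg/kg was 3 without vehicle-treated mouse 2 and also 3 without mouse 66. Sult1a1 and Sult1c2 kept their call at 30 μg/kg without each single mouse of the 2 groups. The sign at 30 μg/kg turned with the index set for Sult1d1 (-0.0695), Gstm1 (0.139), Sult4a1 (-0.299), Ugt1a2 (-0.0849), Ugt1a6a (-0.0772), Gstm6 (0.405) and Gstm7 (0.454), and with the clock score for Gstt1 (0.0421), Ugt2b34 (-0.199), Gstk1 (0.357), Sult2b1 (-0.241), Gstm2 (-0.385) and Ugt2b35 (-0.266), and with the Hox score for Gstm2 (-0.00201). With the clock score and mouse 14 left out it turned for Gstp1 (-0.591), Ugt1a6b (-0.967), Ugt2b34 (-1.08), Gsto1 (-0.0388), Sult1d1 (-0.745), Sult2b1 (-0.0759), Ugt1a10 (-2.12), Ugt1a2 (-2.15e-05), Ugt1a5 (-0.131) and Ugt1a6a (-0.817). In that fit it also turned for Gsta3 (-1.53), Gstp2 (-2.41), Gstt2 (-0.258), Mgst1 (-0.802), Ugt2b35 (-1.36), Gstm2 (-0.621) and Gstm5 (1.13). Leaving out 1 mouse gave -0.0336 to 0.0704 for Gsto1 and -0.213 to 0.093 for Gstm1. Beyond the call rule of limma voom, the cause was not tested. No paired analysis was possible because the groups share no mouse numbers. Ugt1a10 and Sult4a1 reached 10 counts in 3 and 5 libraries, and their log2 differences at 30 μg/kg had SEs of 0.745 and 0.686.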
